A study of Mus musculus with 8 samples.

Results

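Genes of the transforming growth factor beta (TGF-beta) and bone morphogenetic protein (BMP) pathway were followed in the untreated adult lung of 4 wild-type and 4 Scgb3a2-transgenic mice. Members were taken by a rule on their names, set with earlier results of these data known, namely gene symbols that begin with Tgfb, Tgfbr, Bmp, Gdf, Smad or Ltbp followed by a digit, or with Bmpr, Acvr or Inhb. This gave 54 genes among 20920 gene symbols in the matrix that the authors deposited, measured by 80 probes. Of these, 74 probes for 51 genes were bright enough to test, 92.5% of the member probes against 79.3% of all probes. These shares are over unlike sets. Members could come only from the matrix, which held 40052 array probes after the authors' filter for detected probes. The second share is over all 41174 probes on the arrays. What else set the shares apart was not tested. Not tested were the probes of Inhbc, Bmp15 and Gdf3 and 2 of the 3 probes of Acvr1c, of which 4 were above background on no array and 2 on a single array.

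All mice were males of strain C57BL/6, 8 to 10 weeks of age according to the labels, and had no treatment. The transgenic mice carried a mouse Scgb3a2 cDNA behind the human surfactant protein C promoter, which is active in alveolar type II cells, and they derived from a single founder, so that the transgene and its insertion site cannot be told apart. Whole-lung RNA of each mouse was labeled with Cy5 and hybridized against a Cy3-labeled RNA pool, described as a mix of these samples, with no dye swap. Each of 4 slides held 1 wild-type and 1 transgenic array. Every value below is a log2 ratio of lung over pool, in which 0 means equal signal, and a difference between genotypes is transgenic minus wild-type on the same log2 scale. On the 8 arrays 32271 to 34720 probes were well above background. Precision is set by having 4 mice in each group. Tests and intervals below leave the slide out of the fit unless it is named as a block. In whole-lung RNA, fewer cells of a type and less RNA per cell cannot be told apart.

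TGF-beta is secreted as an inactive complex, held in the matrix by latent TGF-beta binding proteins (the Ltbp genes) until it is released. Active ligands of the family, which include activins, BMPs and growth differentiation factors (GDFs), join type II and type I receptors, and the type I receptor phosphorylates receptor-regulated Smads. Smad2 and Smad3 serve TGF-beta and activin, Smad1, Smad5 and Smad9 serve BMPs, Smad4 is the common partner of both branches, and Smad6 and Smad7 inhibit signaling. In the lung TGF-beta drives fibroblasts toward myofibroblasts and matrix production. The secreted protein SCGB3A2 is reported to counter TGF-beta through Smad7, and the genotype comparison addresses whether the transgene is accompanied by a shift in the transcripts of this pathway in unchallenged lung.

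Scgb3a2 signal was higher on average in the transgenic lungs, without passing the adjusted test. Scgb3a2 stood at 0.01, -0.39, 0.58 and -0.56 in wild-type replicates 1 to 4 and at 1.26, 0.47, 0.70 and 0.74 in transgenic replicates 1 to 4. Wild-type replicate 3 lay above transgenic replicate 2, and the other wild-type arrays lay below all transgenic arrays. The difference was 0.88 (SE 0.24, 95% interval 0.36 to 1.41, limma unadjusted p = 0.0033, adjusted p = 1) and was positive within all 4 slides. The exact permutation p was 0.0571, where 4 arrays against 4 allow no less than 0.0286. Whether the probe also reads the transgene's transcript was not known here, since its position in the gene was not given.

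**Figure D1:**
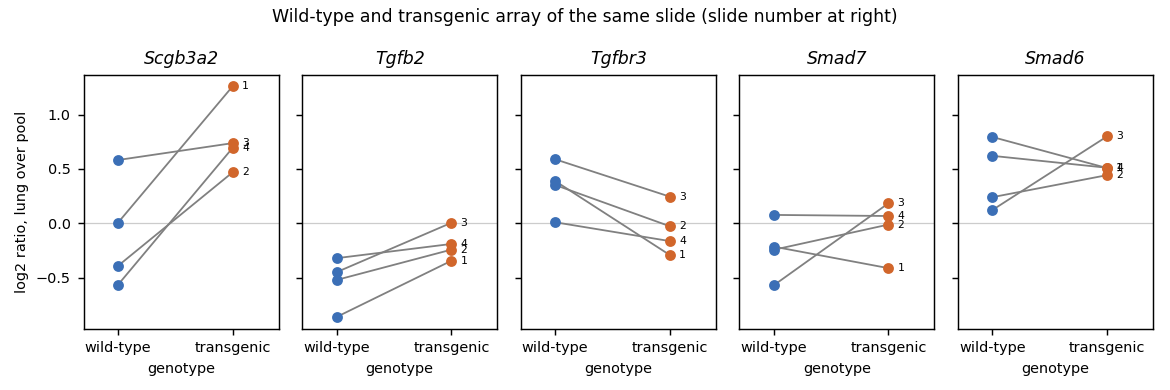
Log2 ratio of lung over pool (vertical axis) for Scgb3a2 and 4 pathway genes in the wild-type and transgenic array of each slide, joined by a line; the number at the right of each line is the slide. Scgb3a2 and Tgfb2 were higher and Tgfbr3 was lower in the transgenic array on all 4 slides, while lines of Smad7 and Smad6 run both ways.

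Across the pathway no transcript passed the test for a genotype difference. Of the 74 member probes 0 had an adjusted p under 0.05 (limma, Benjamini-Hochberg over all 32653 probes tested), as did 0% of all probes, and 4 members had an unadjusted p under 0.05. Of these, 3 were higher in transgenic lungs (4.05% of the members, with 1.12% of all probes called in that direction) and 1 was lower (1.35% against 0.974%). Over all 32653 probes 684 had an unadjusted p under 0.05. That is less than the share of 0.05 that this level allows when no transcript differs. Member differences ran from -0.39 to 0.36, so none reached 1.5-fold. The 95% interval lay within 1.5-fold for 65 of 74 members (87.8%, against 91.2% of all probes) and within 2-fold for all 74. The median member difference was 0.02 against 0.00 for all probes. Higher values outnumbered lower ones by 45 to 29, but by 32 to 42 with the arrays centered on their median in place of loess, so that the split gives no direction. Members varied between mice as other probes did, with a median residual SD of 0.180 against 0.179 for all probes.

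**Figure D2:**
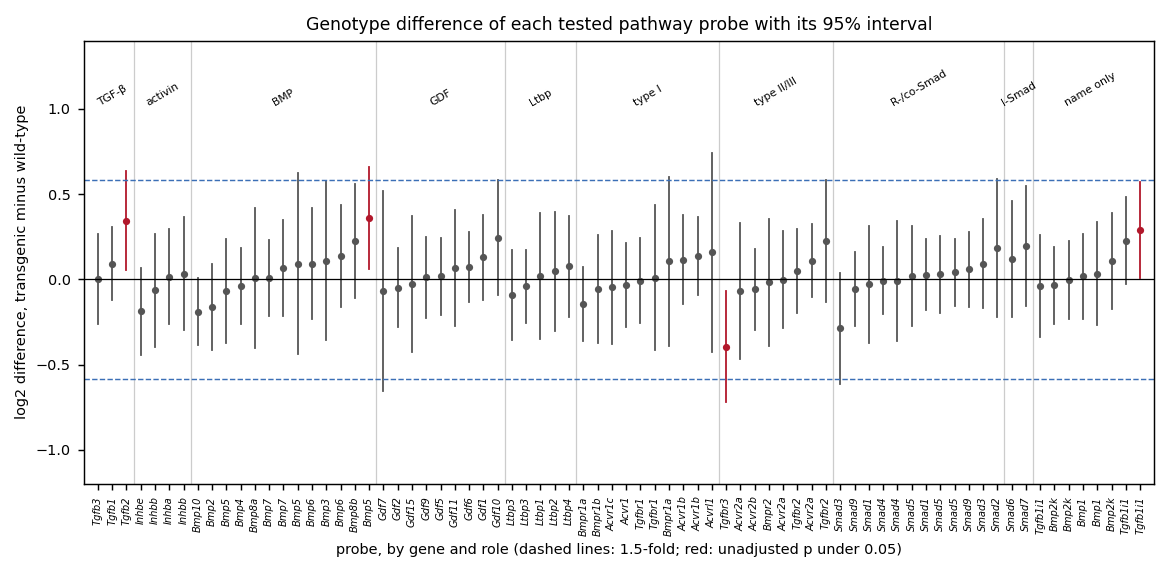
Difference between transgenic and wild-type lungs (log2, vertical axis) for each of the 74 tested member probes with its 95% interval as a bar, grouped by role from ligands to Smads. The 4 red probes had an unadjusted p under 0.05, and points lie between -0.39 and 0.36, inside the dashed lines at 1.5-fold.

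Among the TGF-beta ligands, Tgfb2 had the lowest p. Its values were -0.86, -0.52, -0.45 and -0.32 in wild-type replicates 1 to 4 and -0.34, -0.24, -0.19 and 0.01 in transgenic replicates 1 to 4. The groups overlapped by a single pair, transgenic replicate 1 below wild-type replicate 4. The difference was 0.34 (SE 0.13, limma unadjusted p = 0.023, adjusted p = 1; exact permutation p = 0.0571), positive on all 4 slides, and with the slide as a block the unadjusted p was 0.00855. Without wild-type replicate 1 it was 0.24 (unadjusted p = 0.0712) and without transgenic replicate 4 it was 0.28 (unadjusted p = 0.0695).

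Tgfb1, the main isoform of immune cells and of fibrosis, lay between -0.07 and 0.09 in wild-type and between -0.03 and 0.23 in transgenic lungs, with a difference of 0.09 (95% interval -0.12 to 0.31). Tgfb3 ran from -0.42 to 0.00 in wild-type and from -0.44 to -0.16 in transgenic lungs, a difference of 0.00 (95% interval -0.26 to 0.26). Both intervals exclude a 1.5-fold change in either direction.

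The receptor-level member with the lowest p was Tgfbr3, also called betaglycan, a co-receptor that presents TGF-beta2 to the signaling receptors and also binds inhibin. Its values were 0.39, 0.35, 0.59 and 0.01 in wild-type replicates 1 to 4 and -0.29, -0.03, -0.16 and 0.25 in transgenic replicates 1 to 4. Transgenic replicate 4 lay above wild-type replicate 4 and the groups thus overlapped. The difference was -0.39 (SE 0.15, 95% interval -0.72 to -0.07, limma unadjusted p = 0.0217, adjusted p = 1; exact permutation p = 0.0571), negative on all 4 slides, with an unadjusted p of 0.00553 with the slide as a block. It ran from -0.50 to -0.30 over 22 alternative settings and left-out mice and missed an unadjusted p of 0.05 in 6 of them. Among these were the fits without wild-type replicate 3 (-0.31), transgenic replicate 1 (-0.32) and transgenic replicate 3 (-0.36), with a limma unadjusted p of 0.0567 or more.

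None of the type II receptors had an unadjusted p under 0.05. The brightest probe of Tgfbr2, the receptor that binds TGF-beta first, differed by 0.05 (95% interval -0.20 to 0.29) and its other probe by 0.23 (95% interval -0.13 to 0.58). Bmpr2, the BMP type II receptor whose loss causes pulmonary arterial hypertension in people, had 6 values between -0.36 and 0.19 and a difference of -0.02 (95% interval -0.39 to 0.36). Acvr2a and Acvr2b, which bind activins and many BMPs, gave 4 probes with differences from -0.07 to 0.11.

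Type I receptors had a median difference of 0.00 over 10 probes. Tgfbr1, which phosphorylates Smad2 and Smad3, differed by 0.01 and -0.01 at its 2 probes. Acvrl1, the endothelial receptor for BMP9 and BMP10, had the largest SE of them, 0.27, with values from -1.22 to 0.02 in wild-type and from -0.80 to 0.18 in transgenic lungs. Its interval for the difference, -0.42 to 0.74, reached past 1.5-fold. Bmpr1a, a BMP type I receptor, gave 0.11 by its brighter probe and -0.14 by the other, of which the second was lower in the transgenic array on all 4 slides (unadjusted p = 0.17).

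Smad7, the inhibitory Smad through which SCGB3A2 is reported to act, had values of -0.21, -0.24, -0.57 and 0.08 in wild-type replicates 1 to 4 and -0.41, -0.01, 0.07 and 0.18 in transgenic replicates 1 to 4. The groups overlapped widely, transgenic replicate 1 lay under 3 wild-type arrays, and 2 of 4 slides had the higher value in the transgenic array. The difference was 0.19 (SE 0.16, 95% interval -0.16 to 0.55, limma unadjusted p = 0.248; exact permutation p = 0.343). It kept a positive sign in all 22 alternatives, from 0.08 to 0.32, with unadjusted p from 0.0506 to 0.619. A rise of up to 0.55, and a fall of up to -0.16, therefore stay within the interval, while a 1.5-fold rise does not.

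Smad6, which acts mainly on the BMP branch, stood at 0.62, 0.24, 0.12 and 0.79 in wild-type replicates 1 to 4 and at 0.51, 0.44, 0.51 and 0.80 in transgenic replicates 1 to 4. All 8 values lay above the pool and the transgenic values fell within or next to the wild-type range, with a difference of 0.12 (95% interval -0.22 to 0.46, unadjusted p = 0.449).

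None of the signal-carrying Smads had an unadjusted p under 0.05. The common partner Smad4 had the narrowest range of them by its brighter probe, with all 8 values between -0.29 and -0.16 and a difference of -0.01 (SE 0.09). Smad5 lay between -0.06 and 0.11 and differed by 0.04 (SE 0.09), and Smad1 between -0.45 and -0.22 with 0.03 (SE 0.10). Smad2 had the widest spread, from -0.48 to 0.06 in wild-type and from -0.39 to 0.47 in transgenic lungs, with 0.18 (SE 0.18). The probes of Smad3 disagreed, the brighter at 0.09 (unadjusted p = 0.453) and the dimmer at -0.29 (unadjusted p = 0.0781, and 0.047 with the slide as a block), so that no direction is given for this gene.

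**Figure D3:**
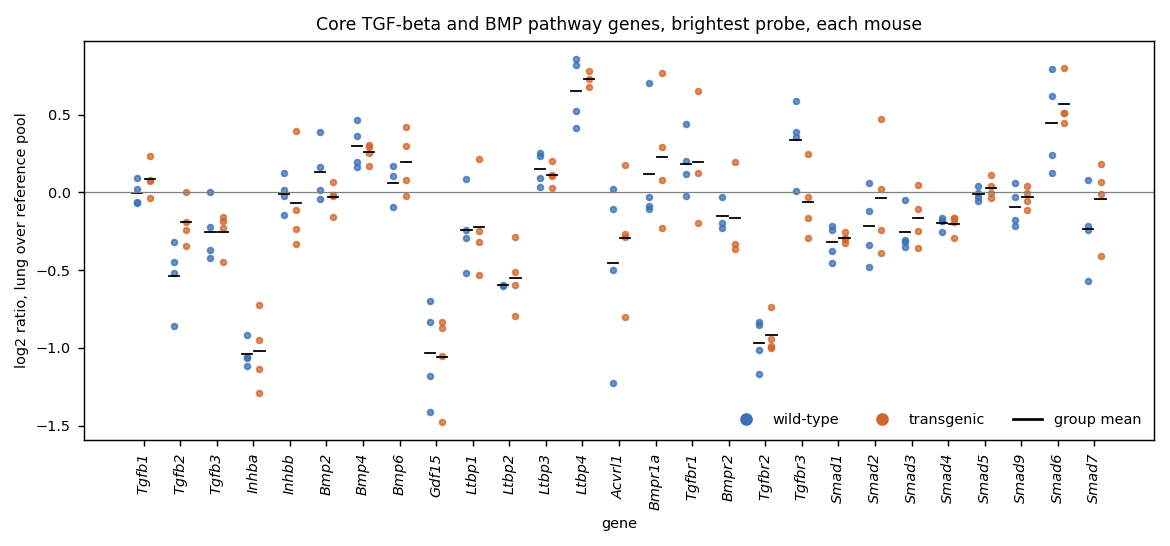
Log2 ratio of lung over pool (vertical axis) for the brightest tested probe of core pathway genes in each wild-type and transgenic mouse, with group means as black lines. The genotypes overlap for every gene drawn, while Inhba, Gdf15 and Tgfbr2 lie near -1 and Ltbp4 and Smad6 above 0 in both genotypes.

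Of the BMP ligands, Bmp5 and Bmp10 were the members whose groups did not overlap, 1 higher in transgenic lungs (1.07% of all probes) and 1 lower (0.903% of all probes). Bmp10, a ligand of Acvrl1 made chiefly in the heart, stood at 0.20, 0.18, 0.13 and 0.08 in wild-type replicates 1 to 4 and at -0.01, -0.07, 0.00 and -0.10 in transgenic replicates 1 to 4. Every wild-type value exceeded every transgenic value, by little: the difference was -0.19 (SE 0.09, limma unadjusted p = 0.0573; exact permutation p = 0.0286, the lowest this design gives). On Agilent's processed signals it was larger, -0.50 (unadjusted p = 0.0187). Of 10 probes of cardiac muscle markers 9 had a lower mean and 1 a higher mean in transgenic lungs, where 50.4% of all probes were higher, with a median difference of -0.42. None had an adjusted p under 0.05 and 3 had an unadjusted p under 0.05. The list's mean per array ran from 0.22 to 0.79 in wild-type and from -0.29 to 0.40 in transgenic lungs. The part of heart tissue in the Bmp10 value was not tested.

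For Bmp5, a ligand of the BMP branch, the brightest probe had a value on 5 arrays only, because the others were flagged: -0.33, -0.24 and -0.24 in wild-type replicates 1, 2 and 4 and 0.08 and 0.10 in transgenic replicates 1 and 2. The groups were apart, with a difference of 0.36 (SE 0.13, limma unadjusted p = 0.0233; exact permutation p = 0.1, the lowest for 3 against 2). The other Bmp5 probes had a value on all 8 arrays and gave 0.09 and -0.07 with overlapping groups. The probe at -0.07 was dim, well above background on only 2 arrays of each genotype. Without wild-type replicate 1 the limma unadjusted p of the brightest probe was 0.058. The brightest probe missed an unadjusted p of 0.05 in 6 of 20 alternatives and fell to 0.11 with median-centered arrays (unadjusted p = 0.559). Bmp4, the BMP of distal lung development, lay above the pool on all 8 arrays, from 0.16 to 0.46, and differed by -0.04 (95% interval -0.26 to 0.18). Bmp2 differed by -0.16, Bmp6 by 0.14 and Bmp7 by 0.01, none with an unadjusted p under 0.05.

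The fourth probe under an unadjusted p of 0.05 belonged to Tgfb1i1, also called Hic-5, a focal adhesion protein induced by TGF-beta that shares the name without being a ligand. This probe stood at -0.64, -0.35, -0.52 and -0.20 in wild-type replicates 1 to 4 and at -0.19, -0.23, -0.25 and 0.11 in transgenic replicates 1 to 4, so that wild-type replicate 4 lay within the transgenic range. The difference was 0.29 (SE 0.13, unadjusted p = 0.0434) and it missed an unadjusted p of 0.05 in 13 of 22 alternatives, including without any of wild-type replicates 1, 2 and 3 and transgenic replicates 2 and 4 (0.21 to 0.32). The brightest probe of the gene gave 0.23 (unadjusted p = 0.0765) and another -0.04 (unadjusted p = 0.774).

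Activin and GDF ligands gave no probe under an unadjusted p of 0.05. Inhba, the activin A subunit, differed by 0.02 (95% interval -0.26 to 0.30), Inhbb by -0.06 and 0.03 at its 2 probes, and Gdf15, a ligand induced by cell stress, by -0.03 (95% interval -0.43 to 0.37). Inhbe, an activin subunit known from liver, differed by -0.19 (95% interval -0.45 to 0.07, unadjusted p = 0.136). Gdf10 had the largest difference of the GDFs, 0.24 (95% interval -0.09 to 0.58, unadjusted p = 0.139). The latent TGF-beta binding proteins differed by -0.09 to 0.08 over 5 probes, with Ltbp1 at 0.02, Ltbp2 at 0.05 on 6 arrays, Ltbp3 at -0.04 and Ltbp4 at 0.08.

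Markers of some other cell types also differed in mean between the genotypes, with no probe at an adjusted p under 0.05. Over all probes 50.4% were higher in transgenic lungs, and at an unadjusted p under 0.05 1.12% of all probes were higher and 0.974% were lower. Of 8 adipose probes all were lower in transgenic lungs (median -0.53, mean per array 0.24 to 0.84 in wild-type and -0.72 to 0.42 in transgenic lungs), 3 of them at an unadjusted p under 0.05. Of 9 type II cell probes 8 were lower, 2 of them at that level (median -0.50, mean per array 0.34 to 1.15 against -0.18 to 0.43). Lymphocyte probes were higher in 7 of 9 (median 0.20), 2 of them at that level, and skeletal muscle probes were lower in 7 of 8 (median -0.11). Fibroblast probes were higher in 5 of 8 (median 0.16), smooth muscle probes in 4 of 9 (median -0.02) and endothelial probes in 4 of 8 (median -0.01). Airway epithelium probes were higher in 2 of 4 (median -0.04), macrophage probes in 3 of 7 (median -0.01) and erythroid probes in 4 of 6 (median 0.08). The part of these cells in the pathway values was not tested.

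Beyond the members, 87 genes that work with the pathway were listed, of which 75 were tested with 123 probes. None had an adjusted p under 0.05, 4 of 123 probes were higher (1.12% of all probes) and 1 was lower (0.974% of all probes) at an unadjusted p under 0.05, and the median difference was 0.02. Id1 and Id3, the classic BMP targets, differed by -0.01 (95% interval -0.35 to 0.33) and 0.03 (95% interval -0.39 to 0.46). Eng, the endothelial co-receptor endoglin, differed by 0.14 (unadjusted p = 0.426) and Fst, the activin trap follistatin, by -0.19 (unadjusted p = 0.374).

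Of the 33 probes of TGF-beta target genes 3 were higher at an unadjusted p under 0.05, where 1.12% of all probes were. A probe of Col3a1 had the lowest p of them. It stood at -1.03, -1.27, -1.46 and -1.50 in wild-type replicates 1 to 4 and at -0.77, -0.96, -1.16 and -0.93 in transgenic replicates 1 to 4. The difference was 0.36 (SE 0.13, limma unadjusted p = 0.0177) and was positive on all 4 slides. Only transgenic replicate 3 lay within the wild-type range. Col1a1 gave 0.36 (unadjusted p = 0.0436), and the other probes of these genes gave 0.23 for Col1a1 and 0.23 and 0.03 for Col3a1, none with an unadjusted p under 0.05. Of the other collagens listed, Col5a2 gave 0.18 (limma unadjusted p = 0.247). The tested probe of Col1a2, a dim one, was lower in transgenic lungs, at -0.13 (limma unadjusted p = 0.331). Snai2, a transcription factor of mesenchymal cells, ran from -0.24 to 0.02 in wild-type and from 0.03 to 0.19 in transgenic lungs without overlap, a difference of 0.25 (unadjusted p = 0.0281; exact permutation p = 0.0286). Over the list 23 of 33 probes were higher, against 50.4% of all probes, and the median difference was 0.11. The other probes were of Itgb6, the epithelial integrin subunit that activates latent TGF-beta, at 0.42 (unadjusted p = 0.0446) with further probes at 0.24 and 0.09, and of Nrtn, a family member that signals through RET, at -0.20 (unadjusted p = 0.0455). Each of these 5 probes missed an unadjusted p of 0.05 in some alternatives, Col3a1 in 3, Snai2 in 8, Col1a1 and Itgb6 in 13 each and Nrtn in 14 of 22, the left-out mice among them. The lowest difference over these alternatives was 0.20 for Col1a1, 0.23 for Itgb6 and 0.16 for Snai2.

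Scgb3a2 and 6 readouts of the pathway were also compared mouse by mouse. The 8 arrays hold both genotypes, so that r mixes the genotype difference with the variation between mice. The 4 arrays within a genotype were too few to separate these. Over the 8 arrays Smad7 had a Pearson r of -0.20 with Scgb3a2 (exact permutation p = 0.627) and a Spearman rho of -0.10 (exact permutation p = 0.84). Smad6 gave r = -0.08 (exact permutation p = 0.848), Id1 r = -0.36 (exact permutation p = 0.376) and Tgfb1 r = 0.32 (exact permutation p = 0.438). Tgfbr2 gave the highest, r = 0.45 (exact permutation p = 0.256) and rho = 0.55 (exact permutation p = 0.171), and Tgfbr1 gave r = 0.44 over its 7 values (exact permutation p = 0.327). On the authors' matrix r was 0.40 for Tgfbr2 and 0.16 for Tgfbr1. The dimmer Tgfbr1 probe, not compared with Scgb3a2, ran against the brighter one across the arrays (r = -0.74). The Spearman rho was 0.10 for Smad6, -0.26 for Id1, 0.12 for Tgfb1 and 0.54 for Tgfbr1, with exact permutation p of 0.236 or more. The lowest adjusted p over the 6 relations was 0.657 for r and 0.707 for rho. Without the 2 arrays farthest from the median of Scgb3a2, wild-type replicates 2 and 4, r was -0.13 for Smad7, -0.02 for Smad6, -0.46 for Id1, 0.77 for Tgfb1, 0.33 for Tgfbr1 and 0.89 for Tgfbr2, so that r for Tgfb1 and Tgfbr2 moved with those arrays.

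A second comparison set the lungs of both genotypes against the pool. The pool was described as holding equal amounts of RNA of each sample. Dye and normalization effects apart, a transcript in such a mix could not be lower in all 8 lungs than in the mix, yet transcripts such as Timp1 were, by 13.6-fold on average. Whether the pool held other RNA was not known here, so that a ratio to the pool describes these 2 channels and not a change from any known lung. With no dye swap, a difference in what the pool held and a difference between the dyes cannot be told apart in these ratios. The median member ratio was -0.09 against 0.01 for all probes, and 40 member probes (54.1%, against 57.5% of all) had an adjusted p under 0.05. At the stricter call of an adjusted p under 0.05 and more than 1.5-fold, 4 member probes were below the pool (5.41%, against 4.71% of all probes) and 2 above (2.7%, against 5.87%), shares near or under the background. The number called moved with the background correction, to 15 with a normexp offset of 0 (5 above and 10 below) and 14 on Agilent's processed signals (3 above and 11 below).

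To show the start regions behind these values, the RefSeq promoter windows (300 bases across a gene's start, build GRCm38.p6, written 5′ to 3′ on the gene's strand) of Tgfb2 and of the 4 members farthest from the pool are printed here, with the core Smad motif in capitals, searched as CAGAC and, for the other strand, GTCTG. The windows are chr8:70632407-70632706 on the minus strand for Gdf15 (the first of 2 listed), chr13:16011601-16011900 on the plus strand for Inhba, chr9:116175314-116175613 on the minus strand for Tgfbr2, chr4:123104911-123105210 on the plus strand for Bmp8b and chr1:186705940-186706239 on the minus strand for Tgfb2.
Gdf15: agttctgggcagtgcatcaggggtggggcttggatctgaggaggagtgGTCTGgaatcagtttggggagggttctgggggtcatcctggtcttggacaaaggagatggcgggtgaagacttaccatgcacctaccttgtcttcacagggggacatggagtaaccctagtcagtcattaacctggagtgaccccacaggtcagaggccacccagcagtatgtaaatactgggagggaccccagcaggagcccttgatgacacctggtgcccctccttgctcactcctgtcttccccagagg
Inhba: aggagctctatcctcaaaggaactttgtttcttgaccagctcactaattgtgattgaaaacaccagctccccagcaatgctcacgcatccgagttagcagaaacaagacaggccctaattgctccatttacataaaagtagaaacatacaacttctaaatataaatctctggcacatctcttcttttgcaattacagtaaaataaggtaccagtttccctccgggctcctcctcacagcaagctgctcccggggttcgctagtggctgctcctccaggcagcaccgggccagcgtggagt
Tgfbr2: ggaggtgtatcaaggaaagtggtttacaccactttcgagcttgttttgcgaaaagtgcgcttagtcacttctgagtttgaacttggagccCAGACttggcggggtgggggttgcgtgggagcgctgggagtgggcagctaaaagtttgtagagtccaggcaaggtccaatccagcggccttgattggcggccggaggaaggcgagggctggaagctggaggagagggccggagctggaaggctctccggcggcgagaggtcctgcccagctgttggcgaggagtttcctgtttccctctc
Bmp8b: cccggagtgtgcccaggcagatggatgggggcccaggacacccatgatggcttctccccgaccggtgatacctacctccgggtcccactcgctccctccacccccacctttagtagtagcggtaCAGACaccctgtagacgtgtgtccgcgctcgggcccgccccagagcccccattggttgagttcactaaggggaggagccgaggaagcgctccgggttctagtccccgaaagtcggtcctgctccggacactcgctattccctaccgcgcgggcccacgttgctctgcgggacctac
Tgfb2: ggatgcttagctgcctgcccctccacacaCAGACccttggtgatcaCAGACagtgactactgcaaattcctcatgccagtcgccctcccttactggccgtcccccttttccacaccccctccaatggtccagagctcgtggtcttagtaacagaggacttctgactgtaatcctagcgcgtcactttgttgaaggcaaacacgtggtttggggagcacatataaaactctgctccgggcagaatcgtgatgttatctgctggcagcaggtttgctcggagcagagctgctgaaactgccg

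The motif was present once in the windows of Gdf15, Tgfbr2 and Bmp8b and at 2 places in that of Tgfb2, and these letters were not in the window of Inhba. The table held windows for 39 of the 54 member genes, and 23 of their 50 windows (46%) held the motif, against 49.6% of 32851 windows of all genes. The GC-rich motif of BMP Smads, searched as GGCGCC, which reads alike on both strands, was in 24% of the member windows and 11.9% of all. Windows were at hand for 10 of the 20 listed TGF-beta target genes. Of their 13 windows 10 held CAGAC or its complement (76.9%) and 1 held GGCGCC (7.69%, against 11.9% of all). A match describes letters and is no measure of binding.

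Below the pool were Gdf15, Inhba, a probe of Tgfbr2 and a probe of Bmp2k, a kinase that shares the name only. Gdf15 stood at -1.18, -0.83, -1.41 and -0.70 in wild-type replicates 1 to 4 and at -1.05, -0.83, -0.87 and -1.48 in transgenic replicates 1 to 4, all 8 below the pool, with a mean of -1.04 (SE 0.09, limma adjusted p = 3.6e-06), 2.06-fold lower. Inhba ran from -1.29 to -0.72 over the 8 arrays with a mean of -1.03 (SE 0.06, limma adjusted p = 2.54e-07), and was dim, well above background on 7 of 8 arrays. Its ratio was -2.35 on Agilent's processed signals and -0.64 with normexp fitted on all spots. The Tgfbr2 probe ran from -1.17 to -0.74 with a mean of -0.94 (SE 0.06), while the dimmer Tgfbr2 probe had 0.21 (SE 0.08), so that the probes of this receptor disagree. Bmp2k had -0.72 at the called probe and -0.44 and -0.58 at the others.

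Above the pool were Bmp8b, a BMP known from germ cells and brown fat, and Ltbp4, the latent TGF-beta binding protein needed for elastic fibers of the lung. Bmp8b stood at 0.71, 0.58, 0.99 and 1.03 in wild-type replicates 1 to 4 and at 1.17, 0.71, 1.35 and 0.99 in transgenic replicates 1 to 4, with a mean of 0.94 (SE 0.08, limma adjusted p = 2.13e-06), a value between 0.58 and 2.02 over the alternatives. Its difference between genotypes was 0.23 (95% interval -0.11 to 0.56, unadjusted p = 0.167). Ltbp4 had 7 values from 0.41 to 0.86 and a mean of 0.69 (SE 0.07, limma adjusted p = 1.43e-05). Next in size, short of 1.5-fold, were a probe of Bmp6 at 0.52, Smad6 at 0.51 and Gdf5 at 0.47. Among the ligands Tgfb1 was level with the pool at 0.04 (SE 0.05), Tgfb2 was below it at -0.36 (SE 0.07) and Tgfb3 at -0.25 (SE 0.06).

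Many TGF-beta target probes were below the pool. Of 33 target probes 18 were called below the pool (54.5%, against 4.71% of all probes) and none above, with a list median of -0.67, and each of the 18 was below 0 on every array with a value. They belonged to 11 of the 18 genes tested. Timp1, the inhibitor of matrix metalloproteinases, was lowest, from -4.28 to -3.08 with a mean of -3.77 (SE 0.11, 13.6-fold) at 1 probe and -2.92 (SE 0.08) at the other. Tnc, encoding tenascin C, had -2.76 (SE 0.09) at the lowest of its probes and -0.17 at the highest. Fn1, encoding fibronectin, had -2.23 and -2.29 at its 2 probes. This was not particular to TGF-beta targets, since of the macrophage markers 4 of 7 probes were also below, with Cd68 at -2.04 (SE 0.09) and the probes of Emr1 at -1.60 and -0.96, and of the fibroblast markers 2 of 8, both of Col1a1, which is also a target. Of the co-receptors and activators 3 of 20 were below, led by Fbn1, encoding fibrillin, at -1.55 and -1.13. Col1a1 had -1.23 and -2.04. For Acta2, Col3a1 and Tnc some probes were called below and others were not. The BMP targets, with 2 of 16 probes below and 1 above, and the intracellular regulators, with 1 of 34 below, held fewer. Of the antagonists 5 of 19 were below, led by Fst at -2.01 (SE 0.10) and Fstl1 at -1.11 (SE 0.05). Of the target probes below the pool 14 of 18 were higher in transgenic than in wild-type lungs, with a median difference of 0.16. Over all probes 50.4% were higher. These 18 probes belong to 11 genes and are not independent of one another, and their split was not followed over the alternatives. The count of target probes below the pool was 15 to 22 over the alternatives for which it was computed, which leave out the blocks and the methods' t-test.

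**Figure D4:**
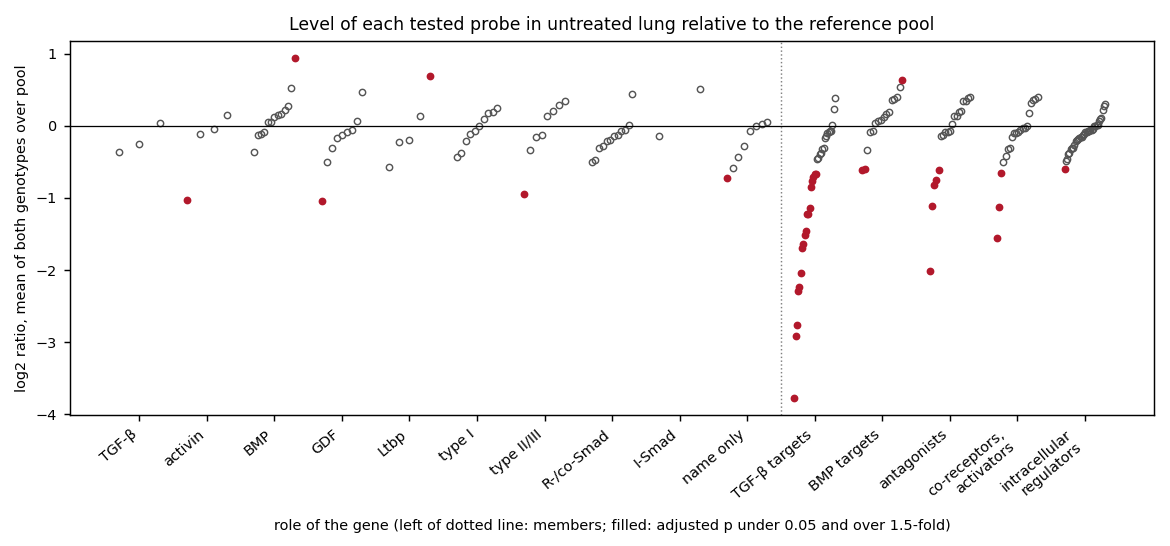
Mean log2 ratio of both genotypes over the pool (vertical axis) for each tested probe, members by role at the left of the dotted line and other pathway lists at the right; filled points had an adjusted p under 0.05 and more than 1.5-fold. Members lie between -1.04 and 0.94, with 6 filled, while 18 of 33 TGF-beta target probes are filled and reach -3.77.

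Where a gene had several probes, those often gave different values, which limits what a single probe can carry. For 18 member genes with more than 1 tested probe, 14 of 28 probe pairs had genotype differences of opposite sign. Differences near 0 would also give such a split, so the count alone does not show that probes disagree. Some pairs share a probe, and the share over other genes was not taken. Across the arrays the median r of a pair was 0.11, from -0.90 to 0.94. The largest gap in genotype difference was between the Bmp5 probes at 0.36, with values on 5 arrays, and -0.07, the dim probe. In the ratio to the pool 4 pairs, of Tgfbr2, Smad4, Tgfbr1 and Acvr2a, differed by more than 0.5.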

How the data were processed

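Lung RNA of 8 mice was measured on 8 two-color Agilent whole mouse genome arrays. For each array the authors deposited raw median and processed intensities per spot from Feature Extraction (version 10.10.1.1 in the file headers, 11.0.1.1 in the labels), and a matrix of log2 ratios, which the authors deposited after keeping probes flagged present or marginal in at least 4 of 8 samples, per the file headers. Its values lay within 0.001 of the log2 processed ratio for 39811 of 39811 single-spot probes. The log10 ratio of processed signals, as deposited in the scanner files, entered no reported value. The methods give an RNeasy kit and the labels a miRNeasy kit.

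Medians and local backgrounds were corrected with normexp (offset 50, fitted on spots without an outlier flag), normalized by loess within arrays and averaged per probe (R 4.3.3, limma 3.58.1, data.table, version 1.17.8). Mean spot signals were not in the output. Flagged spots (1.72% to 6.46% per array) were left out, and no spot was saturated. A probe was tested when well above background in Cy5 on at least 4 arrays with at least 2 values per genotype. limma's moderated test compared genotypes, and the mean of both genotypes with the pool, two-sided, with Benjamini-Hochberg adjustment over all 32653 probes. Single genes had exact two-sided permutation tests. Symbols came from the authors' matrix.

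Named were core pathway genes by their brightest probe, the 10 members with the lowest p, the 5 farthest from the pool on each side, other pathway probes with an unadjusted p under 0.05 with Id1, Id3, Eng and Fst (1 further gene of this rule is not reported here), and the probe pair that differed most. The target, Col1a1 and Timp1 values beside them were named after being seen. Members and lists were chosen with earlier results of these data known. Listed genes Ctgf, Tgfbi, Thbs1 and Lrrc32 were not analysed here. Alternatives numbered 13, with 8 left-out mice and 1 alternative added after seeing the data. The fits were tested on simulated data. Figures used Python 3.11.15 and matplotlib 3.10.9.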

Additional observations from a re-analysis of the deposited data

Results flagged for a closer look

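In 4 of 94 groups of 4 arrays tested for the named probes, a single mouse stood apart from the others of its genotype by Dixon's ratio of gap to range, where chance marks about 1 in 20 groups. For Bmpr1a wild-type replicate 3 stood at 0.71 against -0.11 to -0.03 in the others (ratio 0.91). For the brighter Smad3 probe the same mouse stood at -0.05 against -0.35 to -0.31 (ratio 0.843). For a Bmp2k probe wild-type replicate 1 stood at -0.69 against -0.54 to -0.52 (ratio 0.896). For Id3 transgenic replicate 1 stood at -0.40 against 0.21 to 0.27 (ratio 0.899).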

How the results depend on the processing

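Of 50 named probes compared under up to 22 alternatives (20 or 21 for probes of Bmp5, Ltbp2 and Inhba), no difference with an unadjusted p under 0.05 changed sign, but all 9 such probes lost that level in at least 1 alternative, and of 41 others 28 changed sign and 5 passed it somewhere. The number of member probes at an unadjusted p under 0.05, 4 in the report, was 0 with normexp fitted on all spots and 0 with flags on the spot alone (added after seeing the data), 1 with median-centered arrays, 2 on the authors' matrix and 1 to 5 with a mouse left out. The adjusted count was 0 throughout. For the other pathway probes, 5 in the report, the counts were 2 with normexp offset 0, 2 with normexp on all spots, 2 with flags on the spot alone, 1 with median centering, 11 with array weights, 8 with the slide as a block and 2 to 9 with a mouse left out. Members below or above the pool, 6 in the report, numbered 15 with offset 0, 14 on processed signals and 14 on the authors' matrix. The median difference of the members stayed between -0.03 and 0.04, within the spread between mice of 0.06, and Scgb3a2 stayed between 0.73 and 1.11 with an unadjusted p under 0.05. The methods' t-test gave 3 member probes and 0 after adjustment. The cause of these changes was not tested.

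Replicate numbers did not pair the mice: same-numbered deviations correlated at 0.32, 0.25, -0.08 and -0.21. Mice that shared a slide correlated at 0.32, 0.25, 0.30 and 0.08, and with the slide as a block 5 member probes had an unadjusted p under 0.05. Fitting replicate number as a block, 4 member probes and 6 other pathway probes had an unadjusted p under 0.05, the median member difference was 0.02 and Scgb3a2 stayed at 0.88.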

Other observations

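Extreme values of the members were uneven over the arrays. An array held the highest value for 2 to 16 members and the lowest for 4 to 14. Of the 66 member probes with 8 values, transgenic replicate 4 held the highest value for 16 and wild-type replicate 3 the lowest for 14. These arrays shared a slide. The same counts were not taken over all probes, so they are not particular to the members. Over all probes tested the SD of the ratios also differed between arrays, from 0.36 on wild-type replicate 2 to 0.54 on transgenic replicate 1. It was 0.51 on wild-type replicate 3 and 0.46 on transgenic replicate 4. The median member ratio was 0.02 on transgenic replicate 4 and -0.14 to -0.05 on the other arrays, while the median of all probes was 0.00 to 0.01 on each.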
